A study of Homo sapiens with 4 samples.

Results

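The miR-26 family, miR-26a and miR-26b, was measured in PC-3 cells with and without apelin. Its entries were taken by name, as every catalogue row called miR-26a or miR-26b with any copy or arm suffix. This found 2 entries, miR-26a-5p and miR-26b-5p, of 1096 listed entries in all, 516 of them catalogue miRNAs and the rest predicted ones. PC-3 is an established human prostate cancer line first grown from a bone metastasis, and apelin is a peptide hormone whose receptor is APJ. The 2 control libraries came from PC-3 cells that received no treatment. The 2 apelin libraries came from PC-3 cells given apelin at 10 µg/mL in the medium for 24 h. All 4 libraries shared the same line and the same medium with fetal bovine serum, and no genetic change was made. Nothing in the labels ties a library to a culture of its own, so p-values reflect library-to-library spread that could be purely technical.

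MicroRNAs are short RNAs that guide Argonaute proteins to messenger RNAs, and the seed, bases 2 to 8 of the mature strand, does most of the target recognition. The miR-26 family is known as a growth-restraining family in many tissues: it represses EZH2, the histone methyltransferase of Polycomb complex PRC2, and MYC in turn represses miR-26 transcription. Its hairpins sit inside genes of the CTDSP group, which encode small phosphatases that remove phosphate from the C-terminal domain of RNA polymerase II. Members of the group also silence neuronal genes together with REST, and CTDSPL is known to act on the retinoblastoma protein.

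The mature sequences show why the members count as 1 family, and where reads of one can be told from reads of the other. They come from RefSeq (GRCh38.p14), with the seed in capitals. miR-1297 and miR-4465 are the other mature miRNAs in that table with the seed UCAAGUA, and neither was among the entries listed for these libraries.
miR-26a-5p: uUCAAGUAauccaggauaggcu
miR-26b-5p: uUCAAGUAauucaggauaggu
miR-1297: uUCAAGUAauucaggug
miR-4465: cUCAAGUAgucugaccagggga

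miR-26a-5p and miR-26b-5p are identical over their first 10 bases. Counted from 1 at the 5′ end of miR-26a-5p, they differ at 2 of the 21 positions they share, C11U and C21U, and miR-26a-5p is 22 nt long against 21 nt for miR-26b-5p. A read therefore has to reach position 11 to name the member, and how the authors placed shorter or mismatched reads was not given in the sources used here. miR-26b-5p and miR-1297 are identical over their first 15 bases and part at A16U and U17G. The deposited table lists both members at 22 nt, which for miR-26b-5p is not the RefSeq length. This was common in the table: of 452 catalogue entries with a RefSeq sequence of the same name, 213 had the RefSeq length, 143 were listed as longer and 96 as shorter.

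The hairpin precursors are shown next because a pair of them gives the same mature strand. They are RefSeq sequences with the 5p strand in capitals.
MIR26A1: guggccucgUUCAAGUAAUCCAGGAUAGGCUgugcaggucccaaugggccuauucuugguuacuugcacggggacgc
MIR26A2: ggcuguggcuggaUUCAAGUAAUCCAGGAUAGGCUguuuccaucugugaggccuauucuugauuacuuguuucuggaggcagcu
MIR26B: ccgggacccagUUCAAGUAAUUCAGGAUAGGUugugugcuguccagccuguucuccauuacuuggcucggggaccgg

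MIR26A1 lies at chr3:37969404-37969480 (GRCh38, plus strand) in an intron of CTDSPL. MIR26A2 lies at chr12:57824609-57824692 (minus strand) in an intron of CTDSP2, and MIR26B at chr2:218402646-218402722 (plus strand) in an intron of CTDSP1. Each hairpin is on the same strand as its host, and none overlaps an exon of a protein-coding transcript of that host in GENCODE release 29. In the longest protein-coding transcript, MIR26A1 is in intron 4 of 6, MIR26A2 in intron 5 of 7 and MIR26B in intron 4 of 6. The 3 hairpins thus share a place in the gene: 2 introns follow the hairpin's own intron in every host. The introns differ in length, with 3524 bases in CTDSPL, 2026 in CTDSP2 and 629 in CTDSP1. The miR-26a-5p count cannot be divided between CTDSPL and CTDSP2, because their hairpins carry the same 5p strand. Their 3p strands do differ, at 5 of 22 positions from G11A on, but no miR-26 3p strand was among the listed entries. The libraries hold small RNA, so the host messenger RNAs were not measured either.

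Each library held 5322429 to 6014838 counts, and 521 to 586 entries were above 0. Of the markers used to check the cells, epithelial miRNAs summed to 7866 to 8386 TPM over the libraries, mostly miR-200b-3p (6467 to 6915 TPM), while miR-200c-3p was low (22.98 to 33.25 TPM). Also on that list, miR-203a-3p was at 2.49 TPM in control 1 and at 0 TPM in the others. Here TPM means counts per 1000000 counts of the library, with no division by length. Stromal and smooth muscle markers summed to 4.42 to 6.49 TPM, endothelial ones to 6.32 to 13.68 TPM and blood cell ones to 29.12 to 40.4 TPM, nearly all of it miR-486-5p, known from red cells. The list for liver, muscle and neurons was higher, at 303.4 to 403.6 TPM, nearly all of it the neuronal miR-9-5p (297.8 to 399.2 TPM). Only listed markers enter these sums, 6 of 7 epithelial, 3 of 4 stromal and smooth muscle and 1 of 2 endothelial ones. For blood cells 3 of 6 were listed, and for liver, muscle and neurons 4 of 6.

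Both members were well expressed in every library. miR-26a-5p stood at 6415 TPM (control 1) and 8299 TPM (control 2) without apelin, and at 6380 TPM (apelin 1) and 7398 TPM (apelin 2) with it. Control 2 was highest and apelin 1 lowest, and the groups overlapped. Copy-named rows of 1 mature miRNA were counted as 1 for ranks, which left 506 distinct miRNAs of the 516 catalogue entries. Among these miR-26a-5p held rank 26, 23, 27 and 24, in the same order of libraries. These levels rest on 33956 to 46999 counts per library, so the exact 95% binomial interval in control 1 ran only from 6352 to 6480 TPM. Such intervals cover counting error alone, since PCR copies of 1 molecule were not marked and are counted as separate reads.

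miR-26b-5p, the CTDSP1 member, had fewer counts than miR-26a-5p in all 4 libraries. Its level was 2842 TPM in control 1 and 3609 TPM in control 2, then 2652 TPM in apelin 1 and 3710 TPM in apelin 2. Apelin 2 was highest and apelin 1 lowest, so the apelin libraries bracketed the controls. Its ranks were 44, 41, 43 and 38, from 14113 to 21152 counts. The highest miR-26b-5p level, 3710 TPM, lay below the lowest miR-26a-5p level, 6380 TPM. Such comparisons between miRNAs are of counts, and equal capture of different strands by ligation and PCR was not tested.

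By mean level miR-26a-5p came 24th, at 7123 ± 915 TPM (SD, n = 4). Its neighbours were miR-182-5p, which ran from 6821 to 9001 TPM, and miR-320a-3p, which ran from 4824 to 9806 TPM. Both ranges overlap that of miR-26a-5p, so the order of these 3 is not resolved by the spread between libraries. miR-26b-5p came 43rd, at 3203 ± 534 TPM (SD, n = 4). It lay between miR-423-3p (2912 to 3832 TPM) and let-7d-5p (2177 to 3079 TPM), whose ranges also overlap its own. Adding the members gives the seed UCAAGUA a level of 9257 TPM in control 1 and 11908 TPM in control 2, then 9031 TPM in apelin 1 and 11108 TPM in apelin 2. Among 396 seeds, built from the 455 of 506 distinct miRNAs that matched a RefSeq sequence, this was rank 14, 13, 15 and 15. The sum differed by less than the spread between libraries: the control libraries averaged 10583 ± 1874 TPM (SD, n = 2) and the apelin libraries 10070 ± 1468 TPM (SD, n = 2), with p = 0.667 in a two-sided exact permutation test on log2 values, whose smallest possible p is 0.333.

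Neither member passed the test for a change with apelin, and for both the difference between groups was smaller than the difference between libraries of 1 group. The mean of miR-26a-5p was 7357 ± 1332 TPM (SD, n = 2) over controls, and 6889 ± 720 TPM (SD, n = 2) over apelin libraries. Its log2 fold change, apelin minus control, was -0.066 (SE 0.18, adjusted p = 0.909 in edgeR's quasi-likelihood test with Benjamini-Hochberg adjustment). The value turned to 0.079 without control 2 and to 0.058 without apelin 1. The 95% interval of the change ran from -0.66 to 0.53, or from 0.633-fold to 1.44-fold. Changes inside that span are therefore not excluded by these libraries. In bulk RNA a different level per cell and a different share of cells with the miRNA cannot be told apart.

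The mean of miR-26b-5p was 3225 ± 542 TPM (SD, n = 2) over controls, and 3181 ± 748 TPM (SD, n = 2) over apelin libraries. Its log2 fold change was 0.012 with TMM scaling (SE 0.27, edgeR adjusted p = 0.978) and -0.020 with library totals, so it has no settled direction. The 95% interval ran from -0.86 to 0.89, or from 0.550-fold to 1.85-fold, wider than for miR-26a-5p. Without apelin 2 the value was -0.36 and without apelin 1 it was 0.25, so the library left out sets its sign. edgeR called 0 of the 2 members, where over all 263 tested entries it called 0% (15 entries had an unadjusted p under 0.05, neither member among them). DESeq2, which called 20.2% of the tested entries, also called 0 of the 2, with an adjusted p = 0.893 for miR-26a-5p and 0.991 for miR-26b-5p. The apelin libraries lay wholly above or below the controls for 0 of the 2 members, against 38.4% of the tested entries. The size of the change was smaller than that of miR-26a-5p in 44 of the 263 tested entries, and smaller than that of miR-26b-5p in 5.

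**Figure D1:**
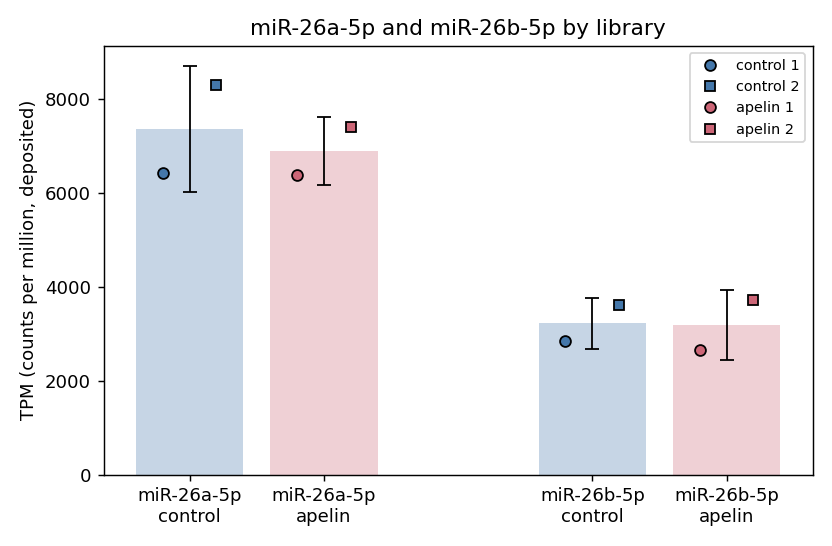
Deposited TPM of miR-26a-5p and miR-26b-5p in each library (points), with the group mean (bar) and SD of 2 libraries (error bar). For both members control 2 stands above control 1 and apelin 2 above apelin 1, and the groups overlap.

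**Figure D2:**
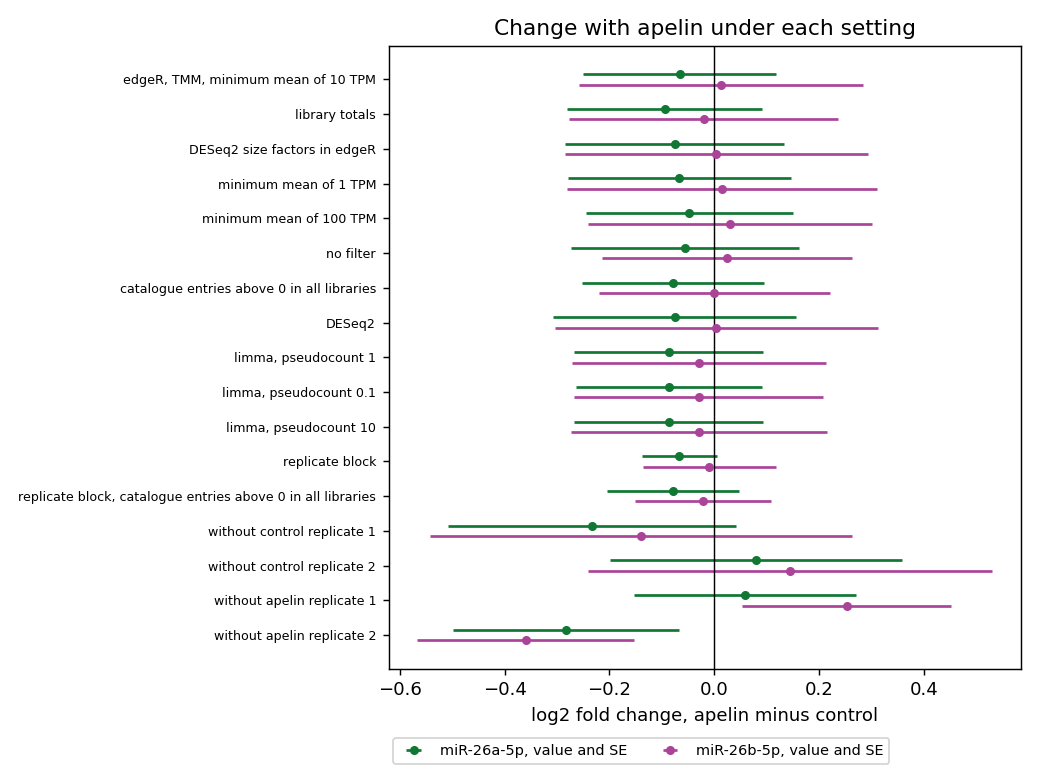
Log2 fold change of each member, apelin minus control, with its SE, under edgeR with TMM scaling and 16 other settings. With all libraries kept miR-26a-5p stays between -0.095 and -0.048 and miR-26b-5p between -0.030 and 0.031, on both sides of 0; leaving out a library moves them further, from -0.28 to 0.079 and from -0.36 to 0.25.

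Both members differed more within groups than between them. Control 2 stood 1.29-fold above control 1 for miR-26a-5p and 1.27-fold for miR-26b-5p. Apelin 2 stood 1.16-fold above apelin 1 for miR-26a-5p and 1.40-fold for miR-26b-5p. Over the 207 catalogue entries that were tested and had counts in every library, the median of the same difference on the log2 scale was 0.0097 in controls and -0.073 with apelin. Of those 207, 56 were higher in both libraries numbered 2 and 72 were lower in both, so the pair belonged to the smaller of these sets. Among the other 206 entries, 9 rose from number 1 to number 2 in both groups by at least as much as miR-26a-5p. For miR-26b-5p, 3 did so. Falls were not counted here, and some were large: miR-320a-3p fell from 9806 to 6418 TPM in controls and from 7409 to 4824 TPM with apelin. The labels do not link libraries by number, and the cause of this pattern was not tested.

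The ratio of miR-26a-5p to miR-26b-5p compares counts of the CTDSPL and CTDSP2 product with those of the CTDSP1 product inside each library. It needs no scaling between libraries, but is a ratio of counts, as equal capture of both strands was not tested. It was 2.26 in control 1 and 2.30 in control 2, against 2.41 in apelin 1 and 1.99 in apelin 2. The controls were close together, and the apelin libraries lay on opposite sides of them. The exact 95% counting intervals of the ratio were 2.22 to 2.30 (control 1) and 2.26 to 2.34 (control 2), and then 2.36 to 2.45 (apelin 1) and 1.96 to 2.03 (apelin 2). These intervals leave out variation between libraries, so a gap between them says nothing about apelin. As a share of the family's counts, miR-26a-5p made up 69.3% and 69.7% in controls 1 and 2, and 70.6% and 66.6% in apelin 1 and 2.

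On the log2 scale the ratio averaged 1.19 ± 0.019 (SD, n = 2) over controls, and 1.13 ± 0.19 (SD, n = 2) over apelin libraries. The difference, apelin minus control, was -0.057 and within the spread of the apelin libraries (two-sided exact permutation test, p = 1.00, with 0.333 the smallest possible). Without apelin 2 it turned to 0.078, and without apelin 1 it was -0.19. With 2 libraries a group this test cannot pass 0.05, so whether the members respond unequally to apelin is not settled here.

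**Figure D3:**
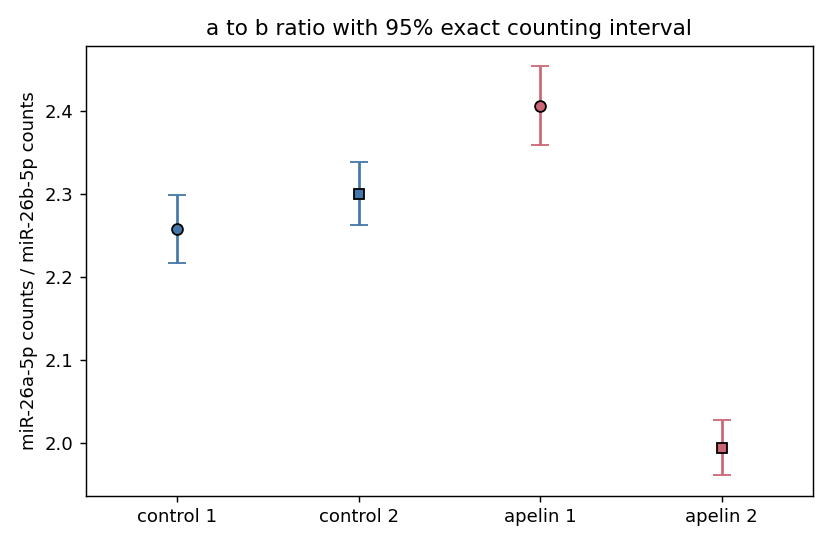
Counts of miR-26a-5p divided by counts of miR-26b-5p in each library, with exact 95% counting intervals; the vertical axis does not start at 0. The controls lie at 2.26 and 2.30, with apelin 1 above them at 2.41 and apelin 2 below at 1.99.

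Other miRNAs with a common seed were set beside that variation. From its highest to its lowest library the log2 ratio of miR-26a-5p to miR-26b-5p moved by 0.27. Over 89 pairs of distinct miRNAs with the same seed, drawn from 21 seeds among the same 207 entries and including the miR-26 pair, the movement ran from 0.076 to 1.27 with a median of 0.53. It was smaller than that of the miR-26 pair in 14 pairs. These pairs share libraries and often members, so the counts describe the table only.

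The miRNAs whose profile over the 4 libraries was most like the members were found by the root mean square difference of log2(TPM + 1), centred on each miRNA's own mean, over 205 other entries. Nearest to miR-26a-5p were miR-27b-3p (difference 0.063), miR-196b-5p (0.074) and miR-132-3p (0.077). Nearest to miR-26b-5p were miR-429 (0.047), a ZEB1-repressing member of the miR-200 family, miR-98-5p (0.064), of the let-7 family, and miR-27b-3p (0.076). miR-27b-3p, which stood at 4302 and 5204 TPM in controls and at 4296 and 5240 TPM with apelin, is in both sets. The members differed from each other by 0.10, and 5 of the 205 entries lay closer to miR-26a-5p than miR-26b-5p did, while 3 lay closer to miR-26b-5p than miR-26a-5p did. With 4 libraries such nearness describes these samples and nothing more.

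**Figure D4:**
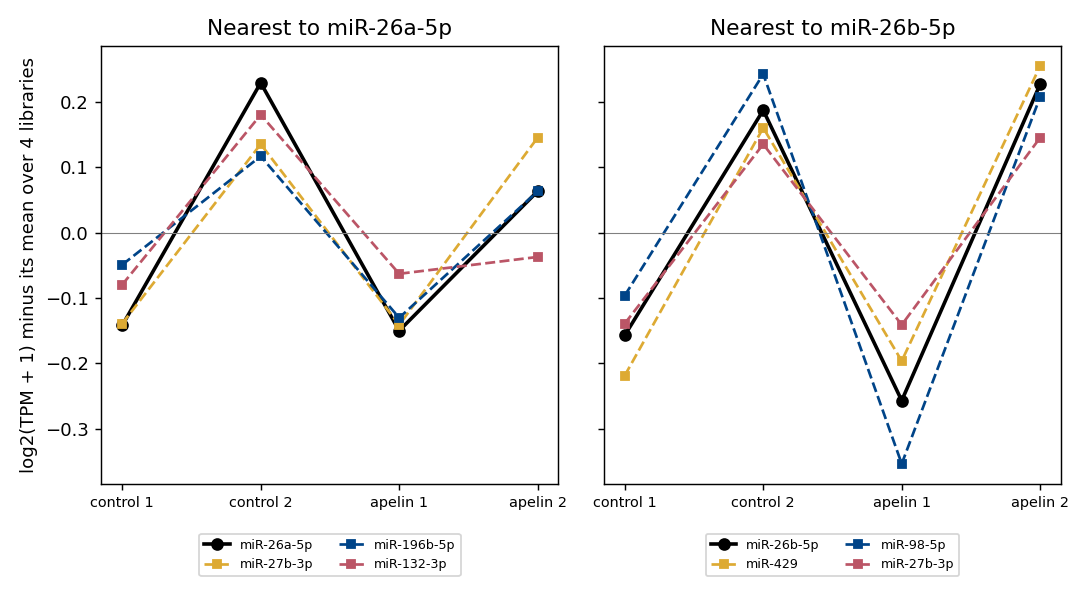
Log2(TPM + 1) minus its mean over the 4 libraries for each member (black) and the 3 miRNAs nearest to it (dashed); the lines join points only to guide the eye. miR-26b-5p and miR-429 run closest, with a root mean square difference of 0.047, and most lines are higher in control 2 and apelin 2.

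Other miRNAs known to repress EZH2, the best-known miR-26 target, were given by a list of 8. Of these, 4 were among the listed entries, and 2 had a mean of at least 10 TPM. miR-101-3p, which also represses EZH2 in prostate tumours, stood at 380.6 and 454.7 TPM in controls 1 and 2, and at 509.2 and 725.4 TPM in apelin 1 and 2. Both apelin libraries were above both controls, a pattern seen in 20.9% of tested entries, and its log2 change of 0.60 (SE 0.28, adjusted p = 0.627 by edgeR) did not pass. miR-98-5p stood at 876.8, 1109, 733.3 and 1083 TPM in the same order, or -0.096 as a log2 change (SE 0.30, adjusted p = 0.909 by edgeR). edgeR called 0 of the 2 in either direction, where it called 0 of all 263 tested entries. The miR-26 members had more counts than miR-101-3p or miR-98-5p in every library.

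MYC-repressed miRNAs, the group to which miR-26 itself is assigned, were given by a list of 22 others, of which 20 were tested. edgeR called 0 of the 20, where it called 0 of all 263 tested entries. There were 11 log2 fold changes above 0 and 9 below, against 130 and 133 over all tested entries. The median of the list was 0.13, against -0.018 over all tested entries, and it was -0.054 without apelin 2. It also moved with the filter, to 0.021 at a minimum mean of 100 TPM and 0.041 with no filter. All tested entries then had medians of 0.027 and -0.074. The apelin libraries lay above both controls for 8 members and below both for 5, where the same held for 20.9% and 17.5% of all tested entries. The 4 most abundant were let-7a-5p (-0.39, SE 0.049, edgeR adjusted p = 0.235), miR-23a-3p (0.029, SE 0.063, adjusted p = 0.876), miR-30d-5p (-0.14, SE 0.063, adjusted p = 0.627) and miR-29a-3p (0.31, SE 0.092, adjusted p = 0.627). DESeq2 called 6 of the 20, against 20.2% of all tested entries. Of the 6, 2 were higher and 4 lower with apelin, let-7a-5p and miR-30d-5p among the lower. Neither miR-26 member was among its calls.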

How the data were processed

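Small RNA from PC-3 cells was sequenced in 4 libraries, 2 control and 2 apelin. The authors deposited 1 table with raw read counts and TPM values per mature miRNA and library, per the file headers. The deposited TPM equals each count per 1000000 counts of its library. Per the labels' protocols, adaptors were ligated, cDNA was amplified by PCR and the products were size-selected on a gel. Per the submitters' processing notes, Trimmomatic 0.30 and DESeq2 were used. Not given in the sources used here were aligner, catalogue and build.

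The main test was edgeR's quasi-likelihood test (edgeR 4.0.16, R 4.3.3) on the deposited counts with TMM scaling, over the 263 entries with a mean of at least 10 TPM (213 catalogue, 50 predicted; 53.2 to 60.1 counts). It used Benjamini-Hochberg adjustment and a threshold of 0.05. The SE was taken as the fitted log2 change divided by the root of the F statistic. The library that is left alone in its group when another is left out is assumed to vary like the rest. limma 3.58.1 and DESeq2 1.42.0 were alternatives. Scripts ran on Python 3.11.15 with numpy 2.4.6, pandas 2.3.3, matplotlib 3.10.9 and scipy 1.17.1, and the tests were tested on simulated data. Hosts came from GENCODE release 29, whose hairpin coordinates equal those of RefSeq. The members and lists were chosen with earlier results of these data known. Named besides the members were same-seed miRNAs, the most abundant tested miRNAs of the EZH2 and MYC lists (at most 4 each), the 3 nearest profiles to each member and the neighbours in level, the last added after their values were seen.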

Additional observations from a re-analysis of the deposited data

How the results depend on the processing

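No miR-26 entry was called under any of the 16 alternatives, all of them planned. The log2 fold change of miR-26a-5p stayed below 0 in 14 of the 16; leaving out a library gave -0.28 to 0.079. That of miR-26b-5p, 0.012, reversed in 8. It was -0.020 with library totals, -0.030 with limma at each pseudocount and -0.0098 with a replicate block. With a replicate block on catalogue entries above 0 in all libraries it was -0.022. It also reversed without control 1 (-0.14) and without apelin 2 (-0.36), but not without control 2 (0.14) or without apelin 1 (0.25). Adjusted p ran from 0.622 to 0.979 and from 0.510 to 1.00. The difference in log2 ratio was -0.057 also with a replicate block (paired differences), and -0.19 to 0.078 with a library left out. The EZH2 list had 1 call and the MYC list 6 with a replicate block on catalogue entries above 0 in all libraries, and the MYC list 6 with DESeq2; otherwise 0. Their medians ran from -0.15 to 0.51 and from -0.054 to 0.12 with a library left out, below 0 without apelin 2. Under the other alternatives they ran from 0.20 to 0.60 and from 0.021 to 0.13. Over all entries edgeR called 0 of 263 in the main setting, and 30 of 207 with the block on catalogue entries. It called 52 of 1096 with no filter and 4 of 162 at a minimum mean of 100 TPM. The other edgeR settings with all libraries kept called 0. limma called 4 or 5 of 263, depending on the pseudocount. The labels give no pairing by number; deviations of libraries with the same number had a correlation of 0.318 across 207 entries. The cause of that correlation, and of the changes between settings, was not tested. Leaving out a library also leaves fewer samples. The 3 nearest profiles of each member were the same under both other measures. Ratios of 5p to 3p strands were not run, as no miR-26 3p entry was listed. Sums over copy-named entries were not run either, as each member is 1 entry. With 2 libraries a group, replicate spread and not depth limits these results.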
